A study of Homo sapiens with 6 samples.

Results

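The tumor necrosis factor (TNF) ligand and receptor superfamily was examined in HEK293T cells with and without valproic acid (VPA). Genes were taken by symbol, as every TNFRSF or TNFSF gene together with TNF, LTA, LTB, LTBR, CD27, CD40, CD70, EDAR and TRADD, which gave 41 of the 47470 listed genes. They were 15 ligands, 6 receptors with a cytoplasmic death domain, 4 decoy receptors, 15 other receptors and 1 adaptor, TRADD. HEK293T cells derive from human embryonic kidney and express SV40 large T antigen, and VPA is an inhibitor of histone deacetylases. RNA was prepared with TRIzol from 3 samples of wild-type HEK293T cells left without treatment and 3 samples kept in 1 mM VPA for 1 day, and mRNA was sequenced with strand-specific DNBSEQ libraries. The values are reads counted per gene in each library. All 6 libraries come from 1 cell line, and the labels do not say whether the replicates were separate cultures, so p-values measure only the spread between these libraries.

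Ligands of this superfamily are mostly membrane proteins that assemble as trimers and cluster their receptors on the surface of neighbouring cells. Receptors with a death domain can recruit adaptors such as TRADD or FADD and start caspase-driven death or NF-kB signalling, receptors without one bind TRAF proteins and feed NF-kB and kinase pathways, and decoy receptors bind a ligand without passing on a full signal. Many members act between immune cells, where they regulate costimulation, lymphocyte survival and inflammation, while some receptors are also made by epithelial cells.

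Depth was even, at 18622267 to 18828495 reads counted on genes per library. Reads on no gene made up 6.80% to 7.69% of the listed reads and ambiguous reads 1.97% to 2.10%. The 41 members together drew 4115 to 4260 counts in the untreated libraries and 4807 to 4911 in the VPA-treated libraries, and 25 to 30 of them had at least 1 count in a library. Markers fixed for an embryonic kidney line were all 8 above the filter, and 7 of them were higher and 1, VIM, lower (-0.27) in VPA-treated cells with TMM scaling. Their summed counts were 16915 to 17199 in untreated and 22202 to 23486 in VPA-treated libraries, with PAX2 (log2 fold change 2.26), ENO2 (1.39) and KRT8 (1.37) changing most. Of 14 markers of immune cells 5 (CD3D, CD4, MS4A1, NKG7 and FCGR3A) were at 0 in every library, and the summed counts of the list were 49 to 85 in untreated and 123 to 140 in VPA-treated libraries. CD8A was the immune marker that passed the test, from 32.0 to 73.8 normalized counts, a log2 fold change of 1.20 with an adjusted p of 2.80e-05, and PTPRC, the pan-leukocyte marker, had 0 counts in untreated against 12 in VPA-treated cells. The part of either marker list in the values below was not tested. In bulk RNA, fewer cells that make a transcript and less of it per cell cannot be told apart.

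VPA-treated cells had more mRNA of the ligands CD70 and TNFSF9 and of the receptors TNFRSF1B, CD40, TNFRSF19, TNFRSF12A, TNFRSF13C and TNFRSF21, and less of the receptors TNFRSF1A and TNFRSF10D. CD70, TNFRSF1B and CD40 were up-regulated at the study's thresholds, a log2 fold change of at least 1 and an adjusted p under 0.05, and no member was down-regulated at a log2 fold change of -1. Of the 41 members 15 passed the filter on low counts and were tested. Among these 8 were higher, 2 were lower and 5 were not called at an adjusted p under 0.05. The members' median log2 fold change was 0.32, beside 0.0058 over all 15298 genes tested. Calls were frequent in this comparison: 32.9% of all tested genes were higher and 30.0% lower, 12.0% were up-regulated and 0.503% down-regulated at the study's thresholds. Every VPA-treated library lay above every untreated library for 8 members and below for 2, beside 34.8% and 31.0% of all tested genes. Scaling of the libraries moved the share of higher genes among all calls, from 52.3% to 63% with upper quartile scaling, 73.9% with library totals and 91.5% with ribosomal protein genes as the reference.

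The share called also depended on how many counts a gene had. Of the 9 tested members with a mean under 200 normalized counts 6 were higher and 0 lower, and of all tested genes in that range 46.2% were higher and 8.20% lower. The other 6 members, with a mean of at least 200, held 2 higher and 2 lower genes, where 25.4% of all such genes were higher and 42.4% lower. This limit of 200 was chosen after the values were seen. CD70, TNFRSF1B and CD40 all belong to the range with few counts, in which 27.1% of all tested genes were up-regulated.

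**Figure D1:**
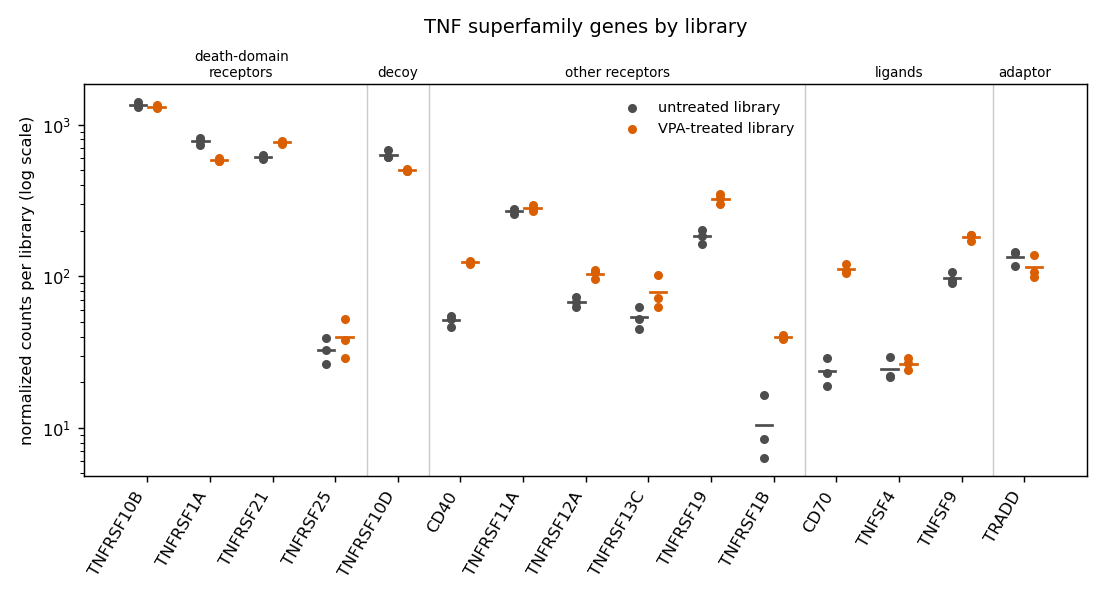
Normalized counts per library (vertical axis, log scale) of the 15 tested members, grouped by role, with 1 point for each of the 3 untreated and 3 VPA-treated libraries and a bar at each mean. Every VPA-treated library lies above every untreated one for 8 members, most clearly for CD70 and TNFRSF1B and only barely for TNFRSF13C. For TNFRSF1A and TNFRSF10D every VPA-treated library lies below.

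Among the ligands, CD70, the ligand of CD27 on lymphocytes, had the largest change. It lies on chromosome 19 from 6581648 to 6591150 (GRCh38.p14). CD70 had 29.0, 18.8 and 23.1 normalized counts in the untreated libraries against 104, 120 and 109 after VPA, so the lowest VPA-treated library lay well above the highest untreated one. The mean rose from 23.6 ± 5.09 to 111 ± 8.19 (mean ± SD, n = 3 per condition), with a log2 fold change of 2.23 (standard error, SE, 0.17, adjusted p 1.87e-10 by edgeR's quasi-likelihood method). Leaving out any 1 library gave 2.08 to 2.40. Its receptor gene CD27 had 2 counts in all untreated and 0 in all VPA-treated libraries, so the ligand changed in cells with almost no mRNA of the receptor.

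TNFSF9, a costimulatory ligand that binds TNFRSF9, lies 45.7 kb away on the same chromosome, from 6531026 to 6535924. It had 90.0, 107 and 94.4 normalized counts in untreated cells against 187, 189 and 172 in VPA-treated cells, without overlap. The mean went from 97.0 ± 8.65 to 183 ± 8.99 (mean ± SD, n = 3 per condition), a log2 fold change of 0.91 (SE 0.11, adjusted p 1.99e-07). This was below the fold change threshold. The next member on the chromosome, TNFSF14, 70.1 kb past CD70, had 0 counts in every library. TNFSF4, a ligand that costimulates T cells, was the only other ligand above the filter, with 24.3 ± 4.28 and 26.5 ± 2.49 normalized counts (mean ± SD, n = 3 per condition), overlapping libraries and a log2 fold change of 0.12 (95% interval -0.31 to 0.56, adjusted p 0.659). Summed over all 15 ligands, the normalized counts were 156, 170 and 153 in untreated and 337, 346 and 324 in VPA-treated libraries. CD70 and TNFSF9 made up most of the sum. Per kilobase of exon, the level of TNFSF9 was 59.4 normalized counts in untreated against 112 in VPA-treated cells, against 15.4 and 72.7 for CD70, so the difference in level between both ligands was narrower after VPA.

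Receptors without a death domain held most of the higher genes. Of the 15 other receptors 6 were tested, 5 were higher and 0 lower, with a median log2 fold change of 0.72. The shares over all tested genes were 32.9% higher and 30.0% lower. Among those with a mean under 200 normalized counts, where TNFRSF1B, CD40, TNFRSF12A and TNFRSF13C lie, they were 46.2% and 8.20%. TNFRSF1B, a receptor for TNF and lymphotoxin alpha, had 16.6, 6.27 and 8.39 normalized counts in untreated against 39.3, 38.5 and 41.1 in VPA-treated cells. The VPA-treated libraries were close to each other and all above the untreated ones, among which replicate 1 was the highest. The mean rose from 10.4 ± 5.43 to 39.6 ± 1.36 (mean ± SD, n = 3 per condition), a log2 fold change of 1.91 (SE 0.27, adjusted p 2.67e-06). It rests on 6 to 16 raw counts per untreated library, and leaving out 1 library gave 1.65 to 2.41. TNFRSF1B passed the filter on low counts only through the VPA-treated libraries. TNFRSF1B lies on chromosome 1 from 12166991 to 12209220, and 1.27% of its exon bases are shared with MIR7846 on the same strand. Its neighbour TNFRSF8, 22.8 kb away, had 22 counts in all untreated and 21 in all VPA-treated libraries.

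CD40, which on antigen-presenting cells receives the helper signal of T cells, lies on chromosome 20 from 46118314 to 46129858. It had 46.5, 52.3 and 54.5 normalized counts in untreated against 121, 127 and 124 in VPA-treated cells. Within each condition the libraries were close and the conditions did not overlap. The mean rose from 51.1 ± 4.12 to 124 ± 3.22 (mean ± SD, n = 3 per condition), a log2 fold change of 1.28 (SE 0.13, adjusted p 2.05e-08). The gene of its ligand, CD40LG, is on chromosome X, where all 1437 listed genes are at 0 in all 6 libraries, so no level of CD40LG, EDA or EDA2R can be read from these counts.

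TNFRSF19, a receptor that can activate JNK signalling and is made in developing tissues, is on chromosome 13 from 23570412 to 23676093. Its libraries held 162, 203 and 186 normalized counts in untreated against 299, 348 and 331 in VPA-treated cells. All VPA-treated libraries were above all untreated ones, and the log2 fold change was 0.83 (SE 0.092, adjusted p 8.12e-08). TNFRSF12A, the receptor of TNFSF12 (TWEAK), on chromosome 16 from 3020368 to 3022383, had 63.1, 73.2 and 68.2 against 110, 95.3 and 107 normalized counts. These also did not overlap, with a log2 fold change of 0.61 (SE 0.13, adjusted p 2.90e-04). The ligand gene TNFSF12 had 10 counts in all untreated and 5 in all VPA-treated libraries.

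TNFRSF13C, the receptor of B cells for TNFSF13B (BAFF), was the weakest call. It lies on chromosome 22 from 41922032 to 41926806, and had 63.1, 52.3 and 45.1 normalized counts in untreated against 101, 72.2 and 63.1 in VPA-treated cells. The lowest VPA-treated and the highest untreated library were almost equal. The log2 fold change was 0.56 (SE 0.18, adjusted p 0.0102). DESeq2 gave 0.54 with an adjusted p of 0.0608, and without VPA-treated replicate 1 edgeR gave 0.34 with an adjusted p of 0.102, so the call depended on the tool and on that library. TNFRSF11A (RANK), the receptor of osteoclast precursors, completed the tested receptors of this class, at 271 ± 10.6 and 283 ± 13.4 normalized counts (mean ± SD, n = 3 per condition), with a log2 fold change of 0.066 (95% interval -0.086 to 0.22, adjusted p 0.474). It was called higher with library totals (0.20, adjusted p 0.0318) and with ribosomal protein scaling (0.34, adjusted p 6.42e-04).

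Of the 6 receptors with a death domain 4 were tested, and 1 was higher, 1 was lower and 2 were not called. TNFRSF21, a death-domain receptor of neurons and lymphocytes, on chromosome 6 from 47231532 to 47309905, had 631, 613 and 592 normalized counts in untreated against 776, 741 and 781 in VPA-treated cells. The libraries did not overlap, and the log2 fold change was 0.32 (SE 0.056, adjusted p 3.07e-05). TNFRSF1A, the broadly expressed main receptor of soluble TNF, on chromosome 12 from 6328771 to 6342076, went the other way. It had 736, 779 and 816 normalized counts in untreated against 580, 605 and 581 in VPA-treated cells, all below the untreated libraries. The log2 fold change was -0.40 (SE 0.057, adjusted p 3.16e-06), and scaled on ribosomal protein genes it was -0.13 with an adjusted p of 0.0505.

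TNFRSF25, a death-domain receptor of T cells, had a mean of 32.6 ± 6.55 normalized counts without and 39.9 ± 12.0 with VPA (SD, n = 3 per condition). Its log2 fold change of 0.29 had a 95% interval of -0.15 to 0.73 (adjusted p 0.269), and with ribosomal protein scaling it was called higher (0.56, adjusted p 0.0362). The remaining death-domain receptors, EDAR and TNFRSF10A, were below the filter. The median log2 fold change was 0.13 over the 4 tested death-domain receptors and 0.61 over the 7 tested receptors without a death domain (5 higher, 1 lower), a difference of -0.49. With FAS and NGFR, death-domain receptors outside the symbol rule that were added after the values were seen, the difference was -0.31. RELT, a tested receptor outside the rule without a death domain (log2 fold change -0.39), was not added to the other class. The classes also differed in count level. TNFRSF10B, TNFRSF1A, TNFRSF21, TNFRSF10D, TNFRSF11A and TNFRSF19 had a mean of at least 200 normalized counts. TNFRSF25, TNFRSF1B, CD40, TNFRSF12A and TNFRSF13C had less. Over all tested genes the median log2 fold change was 0.36 under a mean of 200 and -0.079 from 200 up. The part of count level in the class difference was not tested. That difference is a description of few genes and was not tested.

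The sequence just before the start of a gene is shown for 4 called members because they moved by different amounts and differ in base composition there. RefSeq promoter entries on GRCh38.p14 were matched for 26 of the 41 members and 5 of the 10 called ones. CD70, CD40, TNFRSF12A, TNFRSF13C and TNFRSF10D had none. Each run is the 250 bases before the start, 5′ to 3′ on the gene's strand, and capitals mark GC boxes, the letters GGGCGG searched on both strands. TNFRSF1B is chr1:12166741-12166990 on the plus strand, TNFSF9 is chr19:6530776-6531025 on the plus strand, TNFRSF19 is chr13:23570162-23570411 on the plus strand, and TNFRSF1A is chr12:6342077-6342326 on the minus strand.
TNFRSF1B: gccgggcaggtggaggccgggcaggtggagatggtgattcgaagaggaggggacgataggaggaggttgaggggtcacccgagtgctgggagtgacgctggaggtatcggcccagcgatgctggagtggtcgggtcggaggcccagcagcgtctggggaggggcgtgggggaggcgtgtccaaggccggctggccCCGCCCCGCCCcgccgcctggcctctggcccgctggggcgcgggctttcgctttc
TNFSF9: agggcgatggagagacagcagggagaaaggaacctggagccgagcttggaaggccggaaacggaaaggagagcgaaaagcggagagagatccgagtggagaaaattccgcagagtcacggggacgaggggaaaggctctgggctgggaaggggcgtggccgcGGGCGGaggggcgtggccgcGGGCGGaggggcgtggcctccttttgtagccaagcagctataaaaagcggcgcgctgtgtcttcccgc
TNFRSF19: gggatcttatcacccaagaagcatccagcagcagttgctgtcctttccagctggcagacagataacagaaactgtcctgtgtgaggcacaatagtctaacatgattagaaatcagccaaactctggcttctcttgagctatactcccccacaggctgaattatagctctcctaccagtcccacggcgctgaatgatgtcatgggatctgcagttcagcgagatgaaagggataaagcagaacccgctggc
TNFRSF1A: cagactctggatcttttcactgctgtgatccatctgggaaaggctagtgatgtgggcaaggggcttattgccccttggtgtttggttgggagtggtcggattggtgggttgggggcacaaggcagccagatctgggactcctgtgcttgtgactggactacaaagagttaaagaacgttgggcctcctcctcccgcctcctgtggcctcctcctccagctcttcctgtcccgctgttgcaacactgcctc

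TNFRSF1B and TNFSF9 each hold 2 GC boxes, with 22 and 23 CpG dinucleotides, where the median of all 27305 promoters is 11. TNFRSF19, also higher in VPA-treated cells, and TNFRSF1A, lower in them, hold 0 GC boxes and 4 CpG dinucleotides each. The direction of change was thus not the same as the division by these letters among the 4 printed genes. TNFRSF21 has 1 GC box and 20 CpG dinucleotides, and TNFRSF25 and TNFRSF11A, which were not called, have 3 and 4 GC boxes. A GC box occurs in 42.3% of all promoters and in 14 of the 26 matched members. The letters TATAAA occur in 4 members, TNFSF9 among them, and in 11.1% of all promoters. CCAAT occurs in 6 members and 33% of all promoters, the AP-1 letters TGANTCA in 4 members and 6.6%, and the NF-kB consensus in 4 members and 9.57%. Both strands were searched in the same 250 bases, and no motif contains another, though matches of different motifs can overlap. A match describes the letters and not a bound site.

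The receptors of TNFSF10 (TRAIL) are neighbours on chromosome 8 and split by role. TNFRSF10B, a receptor that signals death, had the highest level per kilobase among the tested members and was not called, with 1303, 1330 and 1423 normalized counts in untreated against 1341, 1296 and 1314 in VPA-treated cells. These overlapped, and the log2 fold change was -0.038 (95% interval -0.13 to 0.056, adjusted p 0.510), a sign that turned positive with upper quartile scaling, library totals and ribosomal protein scaling. With the last of these TNFRSF10B was called higher, at 0.23 with an adjusted p of 2.37e-04. TNFRSF10D, a decoy with a truncated death domain, from 23135588 to 23164027, had 616, 609 and 678 against 492, 514 and 496. Every VPA-treated library was below every untreated one, with a log2 fold change of -0.34 (SE 0.061, adjusted p 5.26e-05). Scaled on ribosomal protein genes it was -0.070 with an adjusted p of 0.328. TNFRSF10A had 0 counts in all 6 libraries, and the decoy TNFRSF10C had 15 counts in untreated and 8 in VPA-treated libraries. Reads that fit several of these related genes could have been set aside in the counting, which makes their levels uncertain.

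A share within a library needs no scaling between libraries. The decoys TNFRSF10C and TNFRSF10D made up 40.6%, 40.1% and 40.5% of the counts per kilobase of exon on the 4 TRAIL receptor genes in untreated libraries, and 34.5%, 36.3% and 35.1% in VPA-treated libraries. The means were 40.4% ± 0.266 and 35.3% ± 0.899 (mean ± SD, n = 3 per condition), a difference of -5.09 percentage points, with no overlap. As raw counts the shares were 32.1% and 27.7%. With 3 libraries against 3, an exact permutation test (two-sided) cannot go below a p of 0.1, and none was run.

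The balance of the TNF receptors, a ratio chosen after the values were seen, combines the changes of TNFRSF1A and TNFRSF1B given above. It is a description of the same counts and not a further result. There were 44.5, 124 and 97.3 counts of TNFRSF1A for each count of TNFRSF1B in untreated libraries and 14.8, 15.7 and 14.1 in VPA-treated libraries. The untreated ratios vary widely because TNFRSF1B had few counts there, but all lie above the VPA-treated ones. From summed counts the ratio was 74.5 in untreated against 14.9 in VPA-treated cells, 5.02-fold apart, and 4.18-fold to 7.32-fold apart when 1 library was left out. Per kilobase the ratio was 79.6 and 13.4, so TNFRSF1A remained the more abundant receptor mRNA in both conditions.

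**Figure D2:**
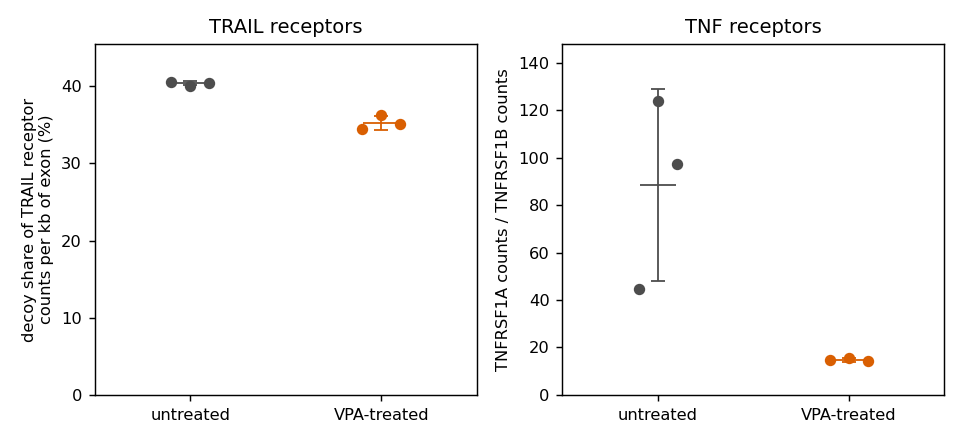
Left, the share in percent of the decoys TNFRSF10C and TNFRSF10D among the 4 TRAIL receptor genes, in counts per kilobase of exon. Right, TNFRSF1A counts divided by TNFRSF1B counts. Points are libraries, and horizontal and vertical bars are the mean and SD of the 3 libraries of a condition. Both measures were lower in every VPA-treated library than in every untreated library, with means of 35.3% against 40.4% and 14.9 against 88.6.

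TRADD, the adaptor that binds the death domain of TNFRSF1A, had 144, 143 and 116 normalized counts in untreated against 139, 99.1 and 106 in VPA-treated cells. The libraries overlapped and the gene was not called, with a log2 fold change of -0.23 (95% interval -0.48 to 0.024, adjusted p 0.129). It was called lower without untreated replicate 3 (-0.33, adjusted p 0.0385) and without VPA-treated replicate 1 (-0.39, adjusted p 0.0127). With ribosomal protein scaling its sign turned to 0.041.

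**Figure D3:**
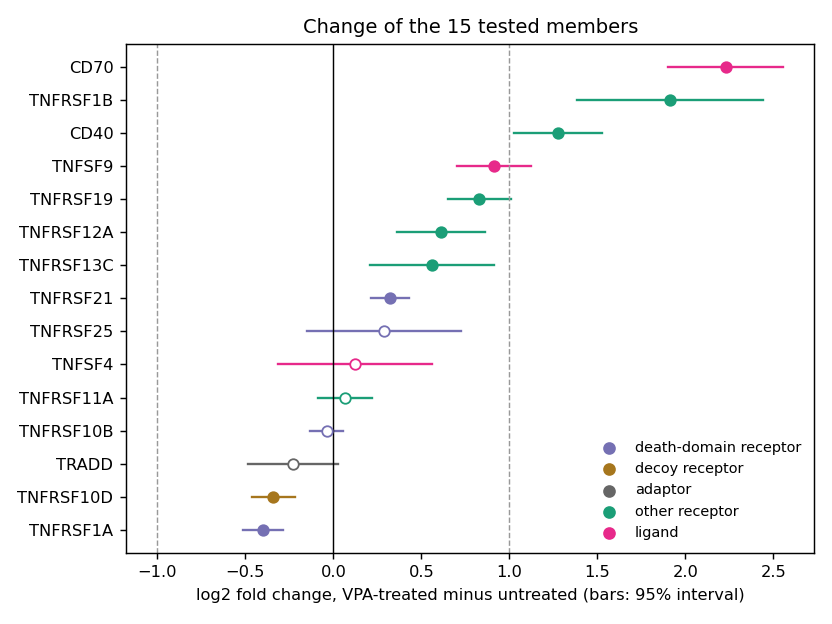
Log2 fold change of the 15 tested members, VPA-treated minus untreated, in order of size and coloured by role. Bars are 95% intervals, filled points have an adjusted p under 0.05 and dashed lines mark a log2 fold change of 1 in either direction. CD70 (2.23), TNFRSF1B (1.91) and CD40 (1.28) lie past the upper line, and TNFRSF1A (-0.40) is the lowest.

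The other 26 members were below the filter. Of these 7 had 0 counts in every library: TNFRSF10A, TNFRSF11B, TNFRSF17, TNFRSF18, TNFSF8, TNFSF11 and TNFSF14. These genes were not detected at this depth, where a count of 0 over the 3 libraries of a condition allows up to 3 counts. A further 11 had 1 to 10 counts over all 6 libraries and 8 had more, up to 43 for TNFRSF8. Summed counts were higher in VPA-treated libraries for 9 of the 26 and higher in untreated libraries for 8, and were equal for 2.

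EDAR, the death-domain receptor of ectodermal development, had 0 counts in each untreated library and 8, 3 and 2 in the VPA-treated libraries. Set against a floor of 3 counts over the untreated group, the 13 counts in VPA-treated libraries gave a ratio of 3.98. This ratio leaves out the counting error of the 13 counts. Without the filter EDAR was called, with an adjusted p of 0.00108 in edgeR, and DESeq2 gave 0.0168. TNFRSF9, the costimulatory receptor that binds TNFSF9, had 0, 1 and 1 counts against 6, 4 and 6. Its ratio was 7.35 with a 95% counting interval of 1.73 to 65.9, and the adjusted p without the filter was 0.00845 in edgeR and 0.0726 in DESeq2. TNFSF10, the death ligand TRAIL, had 0, 1 and 1 counts against 3, 1 and 7, a ratio of 5.06 with a counting interval of 1.10 to 46.9. It was not called without the filter (adjusted p 0.0751 in edgeR and 0.213 in DESeq2). Counting intervals cover counting error only. Without the filter no other of these members was called in either direction.

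The cytokines that define the family were near the limit of detection. TNF had 4 counts in all untreated and 1 in all VPA-treated libraries, LTA had 17 and 13, and LTB had 1 and 4. LTBR, the lymphotoxin beta receptor, had 2, 4 and 9 counts in untreated and 6, 0 and 3 in VPA-treated libraries, and 6.86% of its exon bases lie opposite SCNN1A. Some low counts are uncertain because the genes overlap others: all exon bases of TNFRSF6B are shared with the readthrough gene RTEL1-TNFRSF6B, and 55.5% of those of TNFSF13 and 12.1% of those of TNFSF12 with TNFSF12-TNFSF13. Of CD27, 42.5% of the exon bases lie opposite CD27-AS1. Some tested members also have exon bases opposite other genes: 8.98% in TNFRSF25 (ESPN), 7.52% in TNFRSF10B (RHOBTB2) and 2.22% in TNFRSF12A (CLDN6). The strand setting of the counting is not given in the sources used here.

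**Figure D4:**
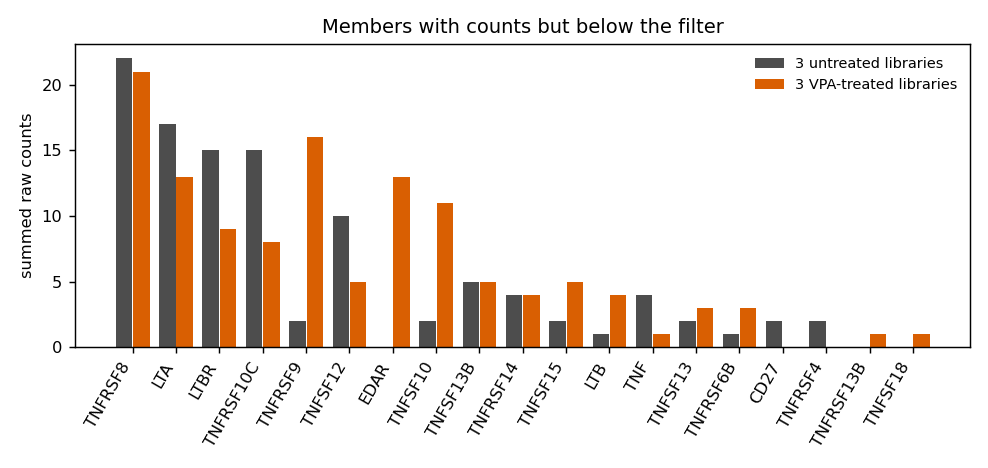
Raw counts summed over the 3 untreated and the 3 VPA-treated libraries (vertical axis) for each member that had counts but was below the filter. EDAR stands out with 0 against 13 counts, while TNFRSF8, the highest, had 22 against 21.

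Genes of the family outside the symbol rule and genes of the pathway were described from lists. Of 78 listed genes 55 were tested, 16 were higher, 16 lower and 23 not called, with a median log2 fold change of 0.011. Their shares, 29.1% in each direction, were near those of all tested genes. With ribosomal protein scaling 37 were higher and 6 lower. Of 7 family genes outside the rule 3 were tested, 2 higher and 1 lower. NGFR, the low-affinity receptor of neurotrophins with a death domain, rose from 23.0 ± 5.67 to 249 ± 20.5 normalized counts (mean ± SD, n = 3 per condition), a log2 fold change of 3.43 (SE 0.15, adjusted p 2.36e-14). FAS, the death receptor of FASLG, rose from 71.3 ± 3.04 to 118 ± 16.1, a log2 fold change of 0.73 (SE 0.13, adjusted p 5.90e-05). RELT, a receptor without a death domain, fell from 596 ± 45.6 to 455 ± 23.3, a log2 fold change of -0.39 (SE 0.067, adjusted p 3.12e-05). Of the remaining 4 of the 7 genes, FASLG had 0 counts. CD40LG, EDA and EDA2R are on chromosome X, where all listed genes are at 0, so their levels cannot be read. In all, 6 of the 78 listed genes are on that chromosome and could not be tested.

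Of 27 tested adaptors and kinases downstream of the receptors 7 (25.9%) were higher and 8 (29.6%) lower, shares near those of all tested genes. BIRC3, an inhibitor of apoptosis that is recruited to the receptors, rose from 6.60 ± 2.17 to 24.9 ± 2.62 normalized counts (mean ± SD, n = 3 per condition), a log2 fold change of 1.90 (SE 0.31, adjusted p 1.88e-05). Its raw counts were 7, 4 and 8 in untreated against 25, 29 and 24 in VPA-treated libraries. BIRC3 thus passed the filter on low counts only through the VPA-treated libraries. TRAF1, an adaptor of TNFRSF1B and CD40 complexes, rose from 46.9 ± 9.27 to 95.6 ± 13.4, a log2 fold change of 1.02 (SE 0.16, adjusted p 9.98e-06). TRAF3IP2 (0.73), TRAF5 (0.65) and EDARADD (0.31), the adaptor of EDAR, were also higher. The lower ones included TRAIP (-0.43), TNIP2 (-0.43), TRAF4 (-0.34), TNIP1 (-0.29) and RIPK1 (-0.26), the kinase at the TNFRSF1A complex.

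Of 8 tested genes of death signalling 2 were higher and 2 lower, 25% each, with a median log2 fold change of 0.0060. Of all tested genes 32.9% were higher and 30.0% lower. CASP8, the initiator that death receptors activate, had a log2 fold change of 0.27 (adjusted p 0.00437). BID, which links death receptors to mitochondria, had -0.50 (adjusted p 1.84e-07).

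Among NF-kB subunits and inhibitors 2 of 11 tested genes (18.2%) were higher and 4 (36.4%) lower, beside 32.9% and 30.0% of all tested genes. The 4 lower ones had a mean of at least 200 normalized counts, where 25.4% of all tested genes were higher and 42.4% lower. NFKB2, a subunit of the alternative pathway, rose from 413 ± 14.0 to 618 ± 3.67 normalized counts (mean ± SD, n = 3 per condition), a log2 fold change of 0.58 (adjusted p 2.90e-08), and BCL3 had 0.77 (adjusted p 0.0152). NFKB1 fell from 1176 ± 48.9 to 842 ± 22.0, a log2 fold change of -0.48 (adjusted p 4.51e-08), with RELA at -0.34 and the inhibitors NFKBIA at -0.46 and NFKBIB at -0.23. Of 20 genes listed as NF-kB targets 6 were tested, with TNFAIP2 (1.08), PTGS2 (0.65) and TNFAIP8 (0.35) higher and SOD2 (-0.30) lower. These were 50% and 16.7% of the 6, again beside 32.9% and 30.0% of all tested genes. The other 14 targets on the list were below the filter.

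**Figure D5:**
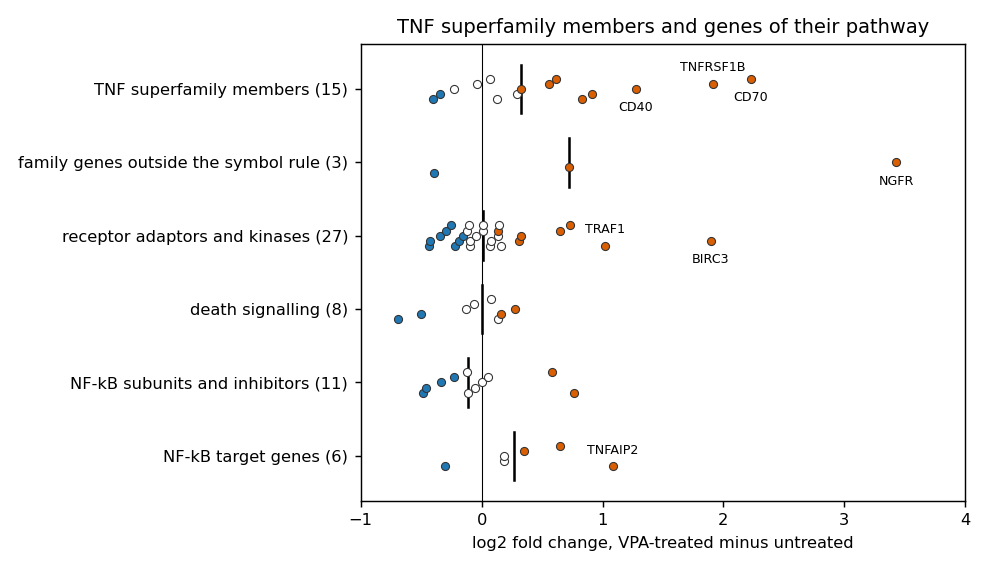
Log2 fold change, VPA-treated minus untreated, of the tested members and of each pathway list, with the number of tested genes in parentheses. Orange points were higher and blue points lower at an adjusted p under 0.05, open points were not called, and black bars are medians. The members have a median of 0.32 and the adaptors and kinases one of 0.011, and NGFR (3.43) lies farthest out.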

How the data were processed

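RNA was measured in 3 untreated and 3 VPA-treated HEK293T libraries. The authors used SOAPnuke for read cleaning and STAR (2.7.10b in the submitters' processing notes) for alignment to hg38, and deposited raw counts per gene from htseq-count, version 2.0.1 in those notes, without normalization. The annotation is not given in the sources used here. The 5 summary lines that name no gene were left out.

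Conditions came from the sample labels. Differential expression used edgeR 4.0.16 (R 4.3.3). Genes were kept by filterByExpr with a count minimum of 10, libraries were scaled by TMM, and condition was the sole term of a robust quasi-likelihood model (prior count 0.125). The p-values were adjusted over 15298 genes by Benjamini-Hochberg. The SE was obtained from the log2 fold change and the square root of F. Normalized counts use TMM and the mean library size (18707134). Levels between genes are per kilobase of GENCODE 44 exon. Depth of 18622267 to 18828495 leaves genes of few counts with wide errors. Libraries of a condition differed by more than sampling noise (chi-square per gene 1.62 to 4.80).

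Every member was accounted for, and called members were given per library. Pathway genes could be named past a log2 fold change of 1 in size, or as the 5 of smallest adjusted p in each direction. The members, lists and alternatives were chosen with earlier results of these data known. Alternatives were DESeq2 1.42.0, other scalings, filters and prior counts, leaving out each library, and a block for the replicate number. The fit was checked on simulated counts. Positions and promoters are from RefSeq on GRCh38.p14, with all 41 members placed. Some genes of the pathway lists are counted but not reported here by name.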

Additional observations from a re-analysis of the deposited data

How the results depend on the processing

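The 8 higher and 2 lower members were counted alike with DESeq2 size factors, upper quartile scaling, a prior count of 2 and DESeq2. With DESeq2 the up-regulated members numbered 4, with EDAR added, and the higher ones held EDAR in place of TNFRSF13C. Ribosomal protein scaling, which moved the median log2 fold change of all genes to 0.28, left 0 members lower, with 11 higher (TNFRSF10B, TNFRSF11A and TNFRSF25 added) and 5 up-regulated (3 in the reported fit), and gave 37 pathway genes higher and 6 lower (16 and 16). Library totals, with a median of 0.14, gave 27 pathway genes higher, and 9 members higher, 2 lower and 4 up-regulated. Without the filter on low counts 10 members were higher and 5 up-regulated. With at least 10 counts required in every library 7 were higher and 2 up-regulated, since TNFRSF1B was then not tested. TNFRSF10B changed sign to 0.028 with upper quartile scaling, 0.094 with library totals and 0.23 on ribosomal protein genes, and TRADD to 0.041 on the latter. Leaving out 1 library gave 7 to 8 higher, 2 to 3 lower and 3 up-regulated members, 12 to 18 pathway genes higher and 15 to 18 lower, a decoy share difference of -5.59 to -4.71 percentage points, and a death-domain difference of -0.58 to -0.51 (-0.49 with all libraries). With FAS and NGFR, added after seeing the data and without RELT in the other class, that difference was -0.31. Over 224 comparisons of single members with an alternative, 211 kept direction and call, 4 lost the call, 5 gained it in the same direction and 4 changed sign, 1 of which, TNFRSF10B with ribosomal protein genes as the reference, was also called. A replicate block left 8 members higher, 2 lower and 3 up-regulated. After each gene's condition mean was subtracted on a log scale, the deviations of same-numbered libraries correlated at 0.14, 0.021 and 0.080. The deviations of differently numbered libraries correlated at -0.11 to 0.031. The values for numbers 1 and 3 lay above that range. Whether the numbers mark pairs is not settled, and the reported fit did not use them. Depth limits the 26 members below the filter and TNFRSF1B, whose untreated libraries held 6 to 16 counts.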
